A study of Mus musculus with 7 samples.

Results

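The Rorb Wif1 Wnt2 fibroblasts are a population of stromal cells of the mouse seminal vesicle, the gland that supplies much of the fluid of the ejaculate. They were chosen by the counts of a few genes. A cell was taken as a fibroblast if it held at least 500 genes, at most 10% mitochondrial UMIs (unique molecular identifiers, each counting 1 RNA molecule), at least 2 of Col1a1, Col1a2, Pdgfra, Dcn and Lum, and no UMI of Ptprc or Pecam1. A fibroblast belonged to the population if it held at least 2 UMIs of Rorb, Wif1 and Wnt2 together, none of Col6a5, Clec3b and Sult1e1, and at most 1 of Angptl7. Of 4228 gated fibroblasts among 22038 cells of 21 mice that passed the filter, 2242 were members, or 53.0%, and the whole series held 53352 deposited cells from 23 mice.

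All mice were males whose seminal vesicles were dissociated for droplet single-cell RNA-seq. An aging pool held 10 C57BL/6J mice on chow: 2 at 3 months, 2 at 20 months, 2 at 20 months treated with rapamycin, 2 at 28 months and 2 at 28 months treated with rapamycin. The paper describes the rapamycin treatment as transient. A diet pool held 8 FVB/NJ mice of 3 months: 2 control mice, 2 under caloric restriction, 2 fed high fat food and 2 fed low protein food. A further 3 FVB/NJ mice of that age, a control, a high fat and a low protein mouse, had a library of their own. According to the paper, mice under caloric restriction were housed singly and given a reduced mass of food. It does not state the housing of the mice on the other diets, so that restriction and housing cannot be told apart. Because C57BL/6J animals were found in the aging pool alone, strain, food and library cannot be told apart. The mice held between 25 and 266 members each, and between 85661 and 894956 UMIs in them. Members held a median of 3671 to 5775 UMIs per cell in the aging pool, 2483 to 2932 in the diet pool and 940.5 to 1124.5 in the single-mouse libraries. Tables from different libraries shared at most 11 cell barcodes.

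Wnt proteins are secreted ligands that act on neighbouring cells through Frizzled receptors and beta-catenin, and secreted proteins such as Wif1 and the Sfrp family bind them outside the cell. Stromal Wnt and Fgf signals are known to direct the growth of the epithelium in male accessory glands. Srd5a2 encodes the enzyme that turns testosterone into the more potent dihydrotestosterone, and Rorb is an orphan nuclear receptor.

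The genes that chose the cells are described without a test. Of the members, 85.0% held a UMI of Rorb, 77.2% of Wif1 and 61.5% of Wnt2, and 41.1% held all 3. Rorb ran from 560 to 1703 CPM (UMIs of a gene in each 1000000 UMIs, after TMM scaling) over the 21 mice with a median of 810, and its highest values were in the high fat and low protein mice of the diet pool. Wif1 ran from 787 to 4285 CPM with a median of 2214. Wnt2 ran from 247 to 636 CPM with a median of 422. At the edge of the rule, among the gated fibroblasts that met its limits on Col6a5, Clec3b, Sult1e1 and Angptl7, 277 held exactly 2 UMIs of Rorb, Wif1 and Wnt2 and 387 held 1. Of these, 25.6% and 18.6% held Srd5a2, at 130 and 94.2 CPM of their pooled UMIs, without TMM scaling.

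**Figure D1:**
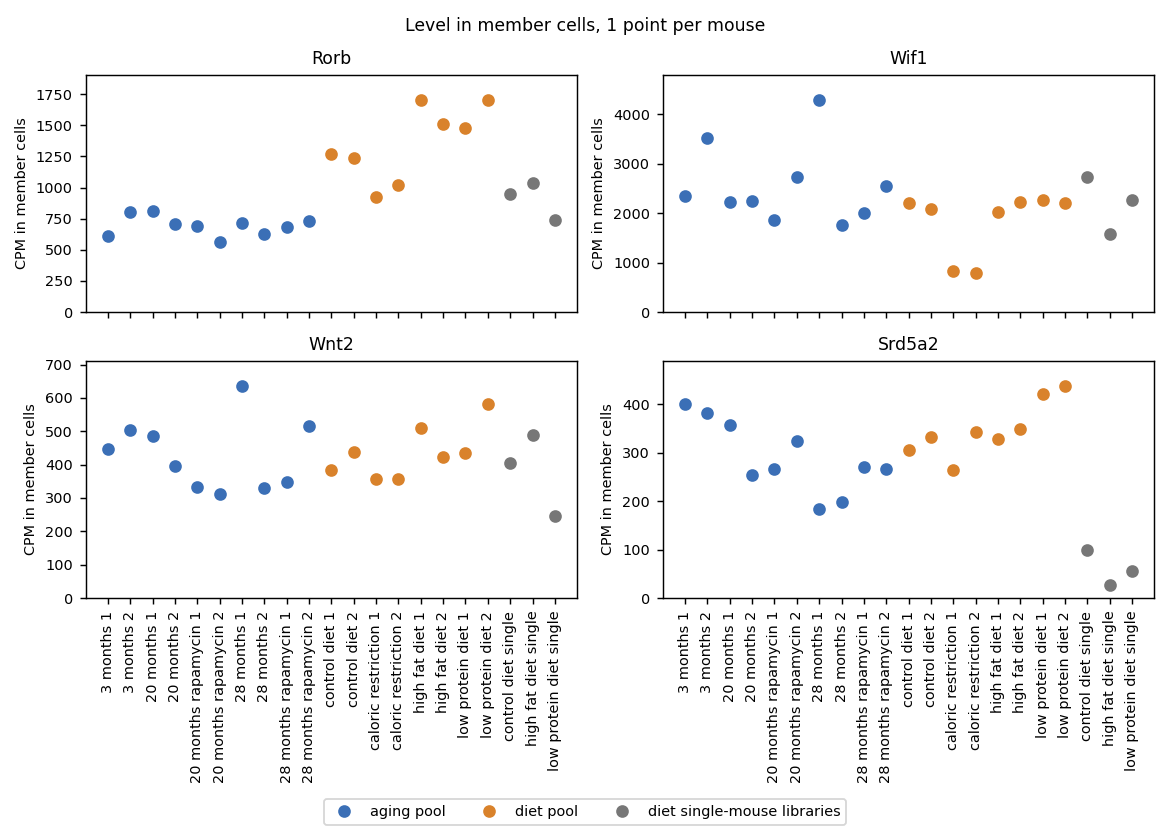
CPM (vertical axis) of Rorb, Wif1, Wnt2 and Srd5a2 in the member cells of each of the 21 mice (horizontal axis), 1 point per mouse, coloured by library set. The 2 caloric restriction mice are lowest for Wif1, at 827 and 787 CPM, and the 3 single-mouse libraries are lowest for Srd5a2.

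Srd5a2 was not read by the rule but was named as a marker of these cells from these data, so it too is described. It was found in 44.4% of members at a median depth of 2792 UMIs, in 2.04% of the Col6a5 Clec3b fibroblasts at 2649 and in 0.341% of macrophages at 3680. It was not confined to members: 13.1% of smooth muscle cells held it at a median depth of 3960 UMIs, 9.12% of basal cells at 3827 and 14.5% at 2250 of the gated fibroblasts that met the limits on Col6a5, Clec3b, Sult1e1 and Angptl7 but had no UMI of Rorb, Wif1 and Wnt2. Over the pooled UMIs of each class, without TMM scaling, its level was 283 CPM in members, 43.6 in smooth muscle cells and 9.03 in basal cells. With TMM scaling per mouse, the level in members lay between 184 and 437 CPM in the 18 mice of the pools. It was 99.4, 26.3 and 54.9 CPM in the control, high fat and low protein single-mouse libraries, below every pooled mouse. Those libraries were counted with another version of Cell Ranger on another gene reference and were shallower, and these differences cannot be told apart. Srd5a1, the other steroid 5-alpha-reductase, ran from 0 to 4.77 CPM and was at 0 in 15 of the 21 mice.

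The cell type label was checked against other lineages. Smooth muscle genes were present: the 9 listed markers summed to between 410 and 12172 CPM per mouse with a median of 2611, Tagln was the most abundant at a mean of 1227 CPM, and none was at 0. Of the members, 149 (6.65%) held at least 2 of Myh11, Cnn1, Actg2 and Des. Endothelial markers summed to at most 144 CPM and macrophage and lymphocyte markers to at most 184 CPM, with Ms4a1 at 0. The rule leaves out cells with a UMI of Pecam1 or Ptprc, so that low sums are in part set by it. In the comparison with Col6a5 Clec3b fibroblasts below, the endothelial marker Plvap was higher in members (69.3 CPM against 5.50) and Kdr was lower (3.88 against 48.0). Epithelial and basal markers summed to between 60.4 and 1680 CPM with a median of 609, led by Krt18 at a mean of 178 CPM, and none was at 0. Secretory and prostate-like products, which the epithelium makes in large amounts, summed to between 3893 and 271880 CPM, led by Svs5. With Svs genes left out the comparison with Col6a5 Clec3b fibroblasts below had 1322 calls in place of 1331. The part of the epithelial markers was not tested.

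The share of gated fibroblasts that were members varied with diet. In the diet pool it was 42.7% and 44.8% in the caloric restriction mice and 57.6% to 75.9% in the other 6 mice, and the groups did not overlap. The means were 43.7% ± 1.49 (SD, n = 2) and 62.8% ± 6.72 (n = 6), with an exact permutation p of 0.0286 for the F statistic over the 4 diets. This call was lost without control diet mouse 1 or 2, where restricted minus other mice gave -19.6 and -19.9 percentage points. The direction turned with the denominator. As a share of all cells, members made up 22.2% ± 2.07 under caloric restriction and 18.3% ± 3.76 in the other mice (exact permutation p = 0.0381, the same statistic), and fibroblasts were 55.3% and 46.2% of the cells of the 2 restricted mice. Wif1 was low in these mice and is read by the rule, and with Rorb and Wnt2 alone the shares of fibroblasts were 38.5% and 55.1% (exact permutation p = 0.0571).

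The share did not separate the ages. It was 69.8% ± 5.74 (SD, n = 2) at 3 months and 59.1% ± 9.60 (n = 8) at 20 and 28 months, with a two-sided exact permutation p of 0.2. Rapamycin-treated mice had 62.7% ± 11.3 and untreated mice of the same ages 55.5% ± 7.32 (n = 4 each, exact permutation p = 0.389, two-sided). With only 36 splits of the mice no outcome of this test could have been a call, so it does not decide whether rapamycin changed the share. The single-mouse libraries held 48.5% (control), 35.4% (high fat) and 42.4% (low protein).

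**Figure D2:**
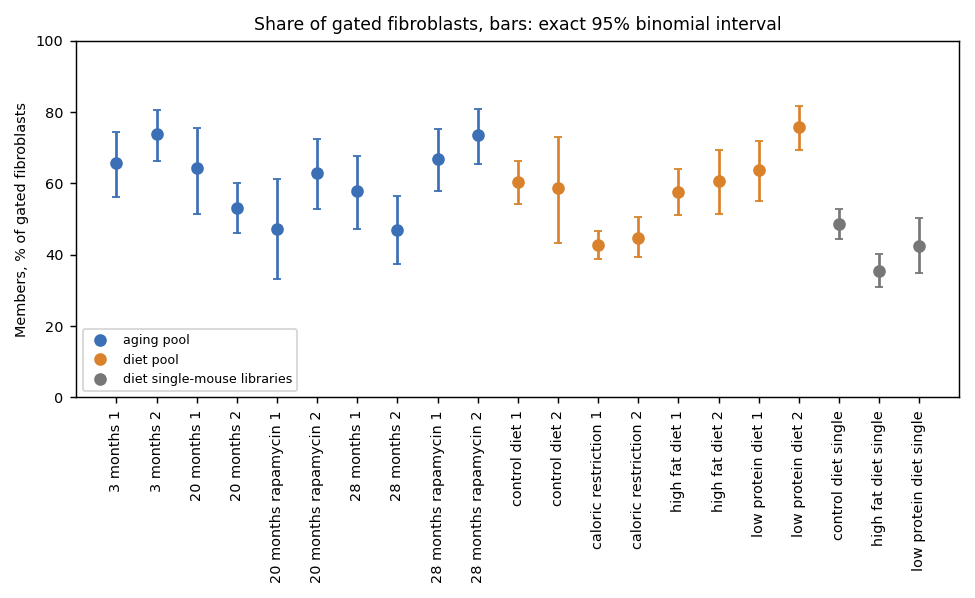
Members as a percentage of gated fibroblasts (vertical axis) in each of the 21 mice (horizontal axis), with exact 95% binomial intervals that cover counting error only. The 2 caloric restriction mice, at 42.7% and 44.8%, lie below the other 6 mice of the diet pool.

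Next, members were compared with the fibroblasts of the opposite gate, which held at least 2 UMIs of Col6a5, Clec3b and Sult1e1 and none of Rorb, Wif1 and Wnt2. In 17 mice with at least 10 cells in both gates, 1331 of 4616 genes passed an adjusted p of 0.05, or 28.8%, with 718 higher in members (15.6%) and 613 lower (13.3%). The calls were 775 without the aging pool, in 9 mice, and 2158 against all other gated fibroblasts, in 21 mice. The median log2 fold change of all genes was 0.08. The genes of the gates were not tested.

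Wnt genes differed among the ligands, the inhibitors and the targets. Of 13 listed ligands, 4 passed the filter on low counts, Wnt4, Wnt5a, Wnt6 and Wnt10a, and these were higher. They had 1196, 401, 1056 and 689 UMIs in members and 21, 22, 15 and 2 in the other gate, so that they passed the filter through the members and their number is no result. The same holds in every list below for a gene that is near 0 in one gate. Wnt4, a ligand of reproductive tract development, ran from 131 to 302 CPM in members and from 0 to 61.6 in the Col6a5 Clec3b cells, and the gates did not overlap. Its log2 fold change was 3.69 (SE 0.325, adjusted p = 4.84e-10), higher in 17 of 17 mice. Wnt6 averaged 183 CPM ± 64.4 against 8.56 ± 10.1. Wnt10a had 689 UMIs in members and 2 in the other gate, a ratio of 87.1 relative to all UMIs (counting interval 24.0 to 721). The secreted inhibitors split: Sfrp2 was higher (674 CPM ± 207 against 46.9 ± 64.5) and so was Notum, an enzyme that removes the lipid of Wnt proteins, while Sfrp1 (75.8 ± 58.5 against 321 ± 206) and Sfrp4 were lower. Of 5 tested target genes, Lef1, Nkd1 and Notum, which is also in the list of inhibitors, were higher and 2 were not called, with 246, 521 and 486 UMIs in members and 2, 9 and 2 UMIs of these 3 in the other gate. Of 5 tested receptors and R-spondins, 1 was higher, 2 were lower and 2 were not called. Fzd1, a Wnt receptor, was higher at 180 CPM ± 54.2 against 24.2 ± 19.9 (log2 fold change 2.46, SE 0.229, adjusted p = 1.38e-09, higher in 17 of 17 mice). The R-spondin Rspo1, which strengthens Wnt signalling, was lower, at 0.235 CPM against 70.1, and so was the co-receptor Lrp6 (log2 fold change -0.67, adjusted p = 0.00993).

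**Figure D3:**
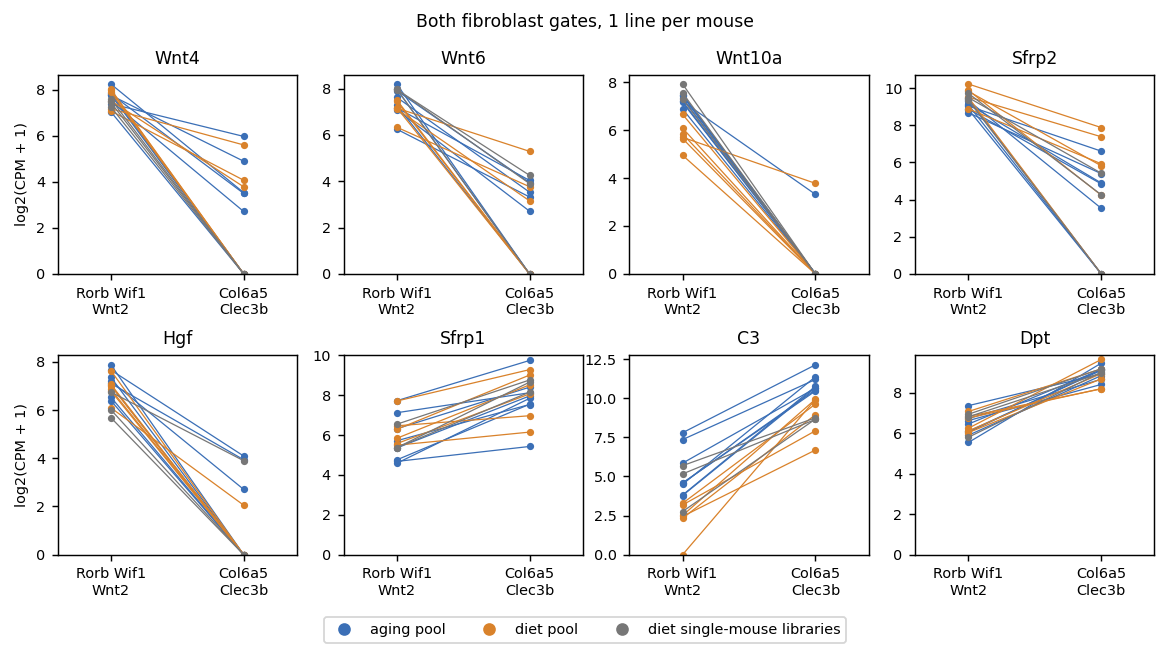
log2(CPM + 1) (vertical axis) of 8 genes in the Rorb Wif1 Wnt2 and the Col6a5 Clec3b fibroblasts of the same mouse, 1 line for each of 17 mice, coloured by library set. Wnt4, Wnt6, Wnt10a, Sfrp2 and Hgf are higher in the members of every mouse, and Sfrp1, C3 and Dpt are lower.

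Other secreted signals went in both directions. Hgf, a growth factor for epithelial cells, averaged 127 CPM ± 50.9 in members and 3.12 ± 5.77 in the other gate. In the list of BMP and TGF beta ligands and antagonists 4 of 14 tested genes were higher and 5 lower. Bmp2, Bmp4 and Bmp7, secreted bone morphogenetic proteins, were among the higher, Bmp2 by 2.69 on the log2 scale (SE 0.254, adjusted p = 1.77e-09). Nrg1, a ligand of ErbB receptors, and Igf1 were also higher, while Vegfd was lower. Of 11 tested growth factors, 3 were higher and 2 lower. Fgf10, a mesenchymal signal for branching, was 19.3 CPM ± 14.5 against 27.5 ± 32.2 (adjusted p = 0.162). In the Hedgehog list, the response genes Ptch1 and Hhip were higher and the co-receptor genes Boc, Cdon and Gas1 lower. Of 8 tested genes of the retinoid list, 2 were higher and 3 lower, with a median log2 fold change of -0.80. Stra6, a retinol transporter, and Aldh1a1, which makes retinoic acid, were higher, and Aldh1a3, which also makes it, Rora and Dhrs3 were lower.

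The matrix genes went the other way. Of 25 tested genes of the interstitial matrix, 21 were lower in members and 1, Bgn, was higher, with a median log2 fold change of -1.34. Ogn, a small proteoglycan, averaged 15.0 CPM ± 13.1 against 602 ± 184, and Aspn, a related one, 1.87 ± 2.92 against 287 ± 208. Adventitial genes, which mark fibroblasts of vessel and organ coats, were lower for 11 of 15, among them Dpt and Mfap5. Chemokines and complement genes were lower for 17 of 22 and higher for 3. The complement component C3 averaged 38.4 CPM ± 60.6 against 1297 ± 1102, and the monocyte chemokine Ccl2 6719 ± 3959 against 11833 ± 8257. The basement membrane list split, with 8 of 17 higher, among them Lama2, Lamb1 and Col15a1, and 6 lower, among them Nid1. Lamc3, a laminin chain that is not in the list, averaged 277 CPM ± 84.9 against 8.91 ± 10.7.

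Other named genes were higher in all 17 mice. They included Gatm, which makes the precursor of creatine (1191 UMIs against 2, ratio relative to all UMIs 151, counting interval 41.6 to 1245), the proteoglycan gene Gpc1, the collagen gene Col23a1 and the transcription factor gene Prdm1. Of the clock genes, 7 of 12 were higher, among them Nr1d1, Cry2 and Dbp. Of the interferon response genes, 6 of 17 were higher and 1 lower, the higher including Ifit1, Ifit2 and Isg15. Of 5 tested Hox genes, Hoxa10, Hoxd11 and Hoxd13 were higher.

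Smooth muscle genes were higher for 8 of 9 (median log2 fold change 2.19). Without the cells that held 2 smooth muscle genes, Acta2 changed from 2.19 to -0.82 and Tagln from 2.50 to -0.41, neither past the threshold. The Col6a5 Clec3b gate also held cells with mesothelial genes, which summed to a mean of 497 CPM there and 6.01 in members. With those cells left out, 653 genes were higher and 535 lower, 1079 of them shared with the full comparison.

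The Angptl7 fibroblasts were few, 44 cells, and only the control and high fat single-mouse libraries had at least 10. In these 2 mice 137 of 1384 genes passed, or 9.90%, with 51 higher (3.68%) and 86 lower (6.21%). Without the highest doublet scores 0 were higher and 5 lower, and with DESeq2 12 and 39. All 6 tested secretory products were lower in members, Svs5 at 86322 CPM ± 12497 against 145241 ± 53732 (n = 2 mice), and Svs2, Svs4, Svs5 and Svs6 changed sign without the highest doublet scores. Wnt4, Wnt6 and Wnt10a had no UMI in the Angptl7 cells, and their calls were lost without the highest doublet scores, without Svs genes and with scaling by library size. In members they were at least 3.70, 5.17 and 3.66-fold higher relative to all UMIs, taking 3 UMIs over both mice as the floor. Myoc and Aspn were among the genes lower in members, with Myoc at 0 UMIs in members and 50 in the Angptl7 cells. The test has 1 residual degree of freedom.

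Of the conditions compared within members, caloric restriction had the most calls. Against the control diet, 65 of 5882 genes passed (1.11%), with 14 higher (0.238%) and 51 lower (0.867%), from 2 restricted and 3 control mice in a fit over 11 diet mice. Leaving out 1 mouse gave between 19 and 97 calls, with 19 without control diet mouse 2 or the control single-mouse library, 27 without restricted mouse 2, 30 without control diet mouse 1, 34 without high fat mouse 2 or low protein mouse 1, and 37 and 36 without high fat mouse 1 and the high fat single-mouse library. Igfbp5, a secreted binding protein of insulin-like growth factors, was 222 and 301 CPM in the restricted mice and 1377, 1625 and 3078 in the controls, and the other 6 diet mice lay at 1842 or above. It fell by 2.78 on the log2 scale (SE 0.334, adjusted p = 0.000839). Csf1, a growth factor of macrophages, was 30.8 and 79.5 CPM against 347, 321 and 102, and it fell by 2.74 (SE 0.328, adjusted p = 0.000839). Igf1, the growth factor itself, was 458 and 358 CPM against 905, 802 and 2436, and it fell by 1.16 (SE 0.198, adjusted p = 0.0102). Both restricted mice were below every control for these genes. The calls of Igfbp5 and Csf1 held without any 1 mouse, and that of Igf1 was lost without restricted mouse 2. For Csf1, the low protein single-mouse library, at 45.7 CPM, also lay below 1 restricted mouse. The call with the largest fall was Sva, a secretory product of the epithelium, at 110 and 77.4 CPM against 371, 3817 and 9094. It fell by 4.21 on the log2 scale (SE 0.815, adjusted p = 0.0242), and the call was lost in 1 of 11 fits without 1 mouse. None of the 8 listed secretory products, which do not include Sva, was called (median log2 fold change -1.09), and they summed to 45960 and 3893 CPM in the restricted mice and 24168, 83456 and 197420 in the controls. With Svs genes left out 79 genes passed. None of 9 smooth muscle markers was called (median 0.76, against 0.05 for all genes), and they summed to 6724 and 7567 CPM against 7359, 3657 and 588. The 6 endothelial markers summed to 16.0 and 12.6 CPM against 38.3, 74.8 and 56.4, and the 1 tested was not called (-2.51). Without the cells that held 2 smooth muscle genes 85 genes passed, 59 of them shared with the 65.

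Il34, another ligand of the macrophage Csf1 receptor, was also lower, as were Aldh1a1 and Ackr3, a scavenger receptor of chemokines. The calls of Il34, Aldh1a1 and Ackr3 were lost in 5, 9 and 4 of 11 fits without 1 mouse. Wif1 was 827 and 787 CPM in the restricted mice and 2195, 2085 and 2729 in the controls. The rule reads Wif1, so its test here is not independent, but among cells chosen by Rorb and Wnt2 alone Wif1 fell by 1.59 on the log2 scale (adjusted p = 0.00567). Higher genes included Enpp2, the secreted lysophospholipase autotaxin (275 and 329 CPM against 115, 128 and 107), and Arc, an immediate early gene first known from neurons (179 and 151 CPM against 48.4, 21.4 and 67.1). The call of Arc held in all 11 fits without 1 mouse, and that of Enpp2 was lost in 8. Agtr2, a receptor of angiotensin II, was 75.4 and 52.3 CPM against 14.1, 0 and 2.69, and its call was lost in 10 of 11 such fits. The early response gene Fos was 3436 and 3324 CPM against 1728, 1091 and 2047, while the 20 dissociation stress genes summed to 33989 and 21340 CPM in the restricted mice and 21897, 17589 and 20436 in the controls, and their part in the result was not tested. The call of Fos was lost in 3 of those fits. Dbp and Per3 of the clock passed, for 2 of 15 tested clock genes, but these calls were lost in 9 and 10 of 11 fits, the groups overlapped for Dbp, and the time of day of collection was not used here. Col1a1 was 662 and 833 CPM against 341, 225 and 524, and it too is read by the rule. Among cells with 2 of the other 4 fibroblast markers, it rose by 1.34 on the log2 scale (adjusted p = 0.0191). The effect of restriction differed between members and Col6a5 Clec3b fibroblasts for 13 of 3796 genes (0.342%), 6 with the higher difference in members (0.158%) and 7 with the lower (0.184%), by edgeR's interaction test in 9 mice, and for 0 by DESeq2. Ccl11, a chemokine of eosinophils, was 1 of the 7, with a difference of -3.87 on the log2 scale (adjusted p = 0.00852). Spinkl, Svs3b, Pate4 and Defb50 were also among the 13. In the fixed lists, none of 8 tested secretory and prostate-like products (median -2.32) was called in this difference. The same held for 7 tested epithelial and basal markers (median 1.68). Neither list holds Spinkl, Svs3b, Pate4 or Defb50, so that the lists do not cover these called genes. None of the 5 mesothelial markers, which the Col6a5 Clec3b gate holds, was called in this difference (median -6.31, against -0.02 for all genes). Without the cells that held a mesothelial gene 40 genes passed, the 13 among them, and Ccl11 was at -3.92 (adjusted p = 0.000581). Leaving out the Svs genes, the called Svs3b among them, gave 21 calls, 12 of them shared with the 13. This removes no other epithelial product, and the part of those was not tested.

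**Figure D4:**
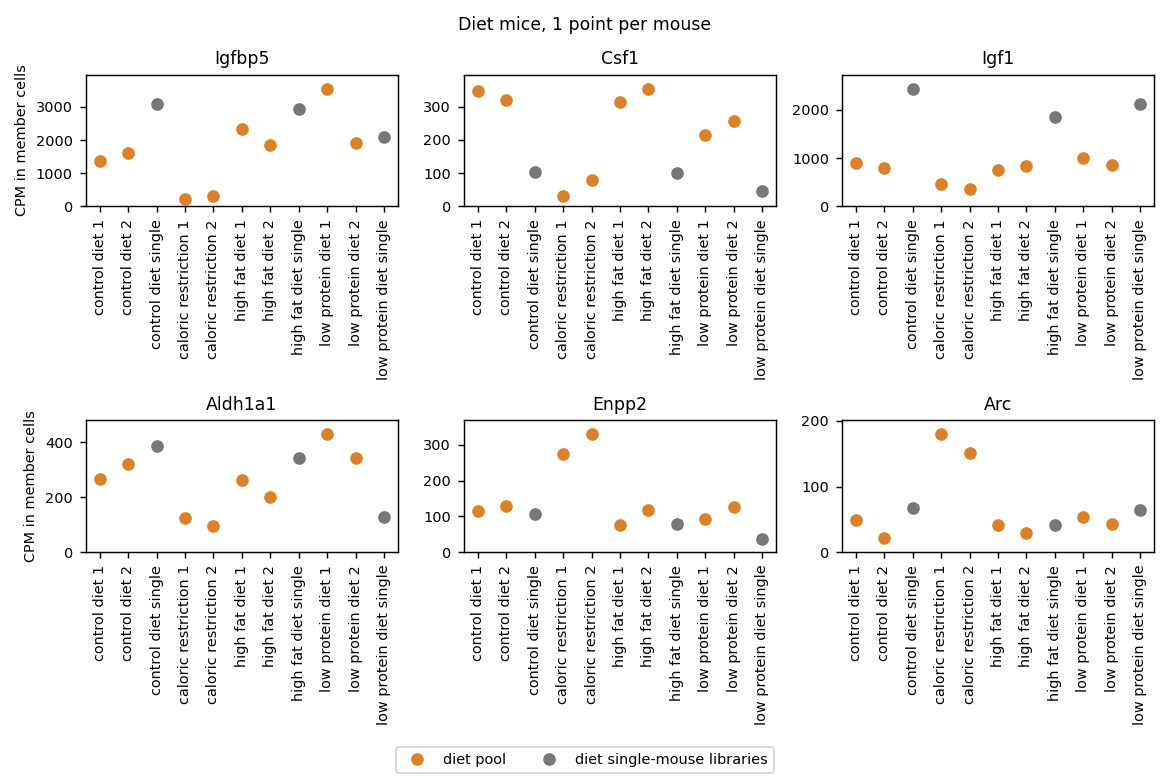
CPM (vertical axis) of 6 genes in the member cells of each of the 11 diet mice (horizontal axis), 1 point per mouse, coloured by library set. The 2 caloric restriction mice are lowest for Igfbp5, Igf1 and Aldh1a1 and highest for Enpp2 and Arc.

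Metallothioneins, small proteins that bind zinc and copper, were chosen after their values were seen. Mt3 was 113 and 98.4 CPM in the restricted mice against 504, 257 and 83.3 in the controls, so that the groups overlapped, and it fell by 1.91 on the log2 scale in the fit that accounts for the single-mouse library (SE 0.251, adjusted p = 0.00136). Mt1 fell by 1.03 (adjusted p = 0.0375) and Mt2 by 1.19 (adjusted p = 0.0391), and these 2 calls were lost in 6 and 8 of 11 fits without 1 mouse. Of 17 tested interferon genes, Ifit1, Ifit2 and Gbp2 were lower and none was higher, with a median log2 fold change of -0.96 against 0.05 for all genes. Ifit1 was 16.0 and 14.7 CPM in the restricted mice and 92.7, 64.2 and 40.3 in the controls, and its call was lost in 9 of 11 fits without 1 mouse. Ifit2 was 5.71 and 10.5 CPM against 50.4, 0 and 53.7, so that 1 control was lower. The calls of Ifit2 and Gbp2 were lost in 10 and 4 of 11 such fits. The stretches upstream of the starts of some of these genes are shown because they hold the letters of known response elements. They come from RefSeq on GRCm38.p6, plus strand, and capitals mark the letters searched on both strands: GAAA, any 2 bases and GAAA, the interferon-stimulated response element, for Ifit1 (chr19:34640639-34640888) and Gbp2 (chr3:142620413-142620662), and TGCACNC or TGCGCNC, the metal response element, for Mt1 (chr8:94178839-94179088) and Mt2 (chr8:94172368-94172617).
Ifit1: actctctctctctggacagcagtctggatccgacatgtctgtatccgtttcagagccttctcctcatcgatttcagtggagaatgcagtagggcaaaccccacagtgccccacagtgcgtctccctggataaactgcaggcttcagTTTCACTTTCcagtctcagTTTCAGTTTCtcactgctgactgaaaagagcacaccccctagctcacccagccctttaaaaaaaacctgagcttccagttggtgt
Gbp2: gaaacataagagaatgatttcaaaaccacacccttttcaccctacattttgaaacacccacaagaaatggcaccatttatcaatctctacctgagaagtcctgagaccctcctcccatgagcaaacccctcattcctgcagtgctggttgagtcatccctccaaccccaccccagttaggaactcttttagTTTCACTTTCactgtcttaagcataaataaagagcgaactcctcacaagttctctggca
Mt1: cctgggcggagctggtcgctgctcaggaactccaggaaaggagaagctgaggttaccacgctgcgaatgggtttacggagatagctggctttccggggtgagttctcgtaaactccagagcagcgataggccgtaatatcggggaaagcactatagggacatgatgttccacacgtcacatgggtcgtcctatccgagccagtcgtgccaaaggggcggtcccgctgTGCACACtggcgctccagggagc
Mt2: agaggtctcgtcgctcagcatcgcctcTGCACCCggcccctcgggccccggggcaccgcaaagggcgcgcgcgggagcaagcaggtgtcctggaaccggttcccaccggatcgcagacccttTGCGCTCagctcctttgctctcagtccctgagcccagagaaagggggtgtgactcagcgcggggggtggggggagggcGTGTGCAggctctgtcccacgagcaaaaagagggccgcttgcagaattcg

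The interferon letters were found in 2.98% of 32851 promoter stretches of 250 bases. Ifit1 held 2 matches and Gbp2 held 1, while neither of the starts listed for Ifit2 held one. The metal letters were found in 21.4% of promoters, with 1 match for Mt1, 3 for Mt2 and 0 for Mt3. A match is a description of the sequence only.

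The other diets moved few genes. With the high fat diet 0 of 5882 genes passed edgeR's test, 196 had an unadjusted p under 0.05 and DESeq2 called 0. With the low protein diet 3 genes passed (0.0510%), Hbb-bs, Hba-a1 and Hbb-bt, which encode haemoglobin chains of red blood cells. Hbb-bs was 8130, 2755 and 0 CPM in the low protein mice and 14.1, 0 and 0 in the controls, so that the groups overlapped, and it was 3538 CPM in 1 mouse of 20 months. Igf1 averaged 1324 CPM ± 695 in the low protein mice and 1381 ± 915 in the controls.

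Age gave no call: 0 of 4679 genes passed edgeR's test, 321 had an unadjusted p under 0.05 and DESeq2 called 5. The smallest p was that of Sfrp1, an inhibitor of Wnt proteins. It was 22.4 and 21.2 CPM at 3 months, 48.6 and 37.1 at 20 months, 196 and 129 at 28 months, 32.4 and 23.0 at 20 months with rapamycin and 73.9 and 48.3 at 28 months with rapamycin. All 8 older mice lay above both young mice. From 3 to 28 months the trend was 3.02 on the log2 scale (SE 0.450, adjusted p = 0.0684). Fbln1, which encodes a matrix protein, had a trend of 3.19 (SE 0.523, adjusted p = 0.0898). Srd5a2 averaged 391 CPM ± 13.8 (n = 2) at 3 months and 265 ± 57.4 (n = 8) later, with a trend of -0.89 (SE 0.215, adjusted p = 0.408). The median trend was 1.29 for 7 tested epithelial and basal markers and 1.28 for 8 secretory and prostate-like products. It was 0.02 for all genes, and none of these markers and products was called.

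With rapamycin 1 gene of 4679 (0.0214%) passed in the fit with age, and it was lower: Col1a1, which encodes a chain of type I collagen. It was 105, 97.7, 95.3 and 142 CPM in the 4 treated mice and 194, 274, 446 and 430 in the 4 untreated mice of the same ages, and the groups did not overlap. It fell by 1.64 on the log2 scale (SE 0.211, adjusted p = 0.0143), but the rule reads Col1a1, so that this test is not independent. Among cells with 2 of the other 4 fibroblast markers, Col1a1 fell by 1.84 (adjusted p = 0.00217), in a selection added after the data were seen. The smooth muscle markers had a median log2 fold change of 1.56 against -0.02 for all genes, with 0 of 9 called. They summed to 12172, 4207, 1220 and 542 CPM in the treated mice and 6573, 410, 587 and 1919 in the untreated, so that the groups overlapped. Without the cells that held 2 smooth muscle genes, Col1a1 was again the only call, and it fell by 1.68 (adjusted p = 0.00745). With the cells of the rule, the call was lost when any of 5 mice was left out, both untreated mice of 28 months among them. The difference in the age trend between members and Col6a5 Clec3b fibroblasts passed for 0 of 3425 genes in 8 mice, with 204 at an unadjusted p under 0.05 and 0 called by DESeq2, and on simulated data this test recovered only 22.7% of the changed genes.

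Levels also differed between the library sets with the same rule. Ifit2 ran from 80.9 to 715 CPM in the aging pool, with 715 and 504 in its mice of 3 months, and from 0 to 92.0 in the diet mice of that age. Wnt10a ran from 64.7 to 177 CPM in the aging pool, with 129 and 158 at 3 months, from 27.4 to 95.4 in the diet pool and from 142 to 219 in the single-mouse libraries. These are descriptions. Between the aging pool, which was on chow, and the diet mice, strain, food and library cannot be told apart, while the diet pool and the single-mouse libraries shared strain and age.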

How the data were processed

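Seminal vesicle cells were captured on the 10x Genomics platform. The authors deposited 1 table per mouse, with UMI counts of each gene in each cell and no normalization. The headers name Cell Ranger 6.0.1 for pooled mice and 3.1.0 for mice in a library of their own. Only the 30406 genes found by Ensembl identifier in both versions were kept. Deposited tag lists and table names gave each pooled mouse its condition. No reads were aligned again.

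UMIs of the cells of a gate were summed per mouse where at least 10 cells were present and tested with edgeR 4.0.16 (TMM scaling, filterByExpr, quasi-likelihood test, Benjamini-Hochberg adjustment over all genes tested). Age was linear in months with rapamycin as a covariate and is given from 3 to 28 months, the diets were fitted with the single-mouse libraries as a block, and gates were compared with the mouse as a block. DESeq2 1.42.0 was an alternative. Each mouse is 1 animal. Levels per mouse are CPM after TMM scaling, levels over pooled cells of a class are unscaled, and a fold change of a low gene depends on edgeR's prior count. Doublets were not removed in the values reported. As an alternative the highest doublet scores were left out, but the caller marked 0.400% of the cells of the aging pool and 0.528% of those of the diet pool, too few to serve as a check in the pools, and 2.94% to 3.37% in the single-mouse libraries. Intervals cover counting error only.

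Named genes were, between gates, the 12 called genes with the largest change in each direction among those with the same direction in every mouse and at least 100 CPM in the higher gate, within conditions up to 10 called in each direction (the 5 with the smallest p where under 5 were called), up to 4 called members of each of 28 fixed lists, and Srd5a1, Srd5a2, Axin2, Fgf10 and Igf1. Some genes that this rule names are not reported here. The members, markers and lists were chosen with earlier results of these data known, and the mesothelial list and the promoters were added after the data were seen, as were the alternatives that leave out Svs genes, mesothelial cells or cells with smooth muscle genes, that do not read Wif1 or Col1a1, or that change the opposite gates, and the comparison of the caloric restriction effect between gates.

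On simulated data with 200 genes changed by a log2 of 2, the test recovered 100% of the changed genes tested for the Col6a5 Clec3b comparison, 78.1% for caloric restriction, 82.1% for age and 97.0% for rapamycin. False calls were 4.37%, 4.46%, 4.17% and 6.31% in the same order. Recovery was 86.5% for high fat, 74.5% for low protein, 22.7% for the age difference between gates and 30.9% for the caloric restriction difference. Software was R 4.3.3 and Python 3.11.15.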

Additional observations from a re-analysis of the deposited data

Results flagged for a closer look

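The effect of caloric restriction differed between members and Col6a5 Clec3b fibroblasts for 13 of 3796 genes in 9 diet mice (edgeR's interaction test), a comparison added after the data were seen. DESeq2 called 0 of them, and 204 genes had an unadjusted p under 0.05. The values are log2 differences of the 2 effects. Inflammatory genes were Ptx3 (-5.07, adjusted p = 0.00801) and Ccl11 (-3.87, adjusted p = 0.00852). Ccl11 had a level of 31.9 CPM, unscaled, in the members of restricted mice and 25.7 in those of the other diets, against 834 and 83.8 in the Col6a5 Clec3b cells. The contractile gene Tagln was at 2.34 (adjusted p = 0.0159) and Gm13889 at 3.20 (adjusted p = 0.00491). Of the other 9, Spinkl (-3.70), Svs3b (-3.54), Pate4 (-3.15), Ceacam10 (-2.94) and Spink1 (-2.90) were below 0, and Defb1 (5.16), Defa30 (9.09), Mmp7 (12.2) and Defb50 (12.3) were above. The first 5 were lower in restricted mice than on the other diets in both gates, in pooled levels without TMM scaling: Spinkl was 275 against 1699 CPM in members and 1275 against 4952 in the Col6a5 Clec3b cells, and Ceacam10 1181 against 1945 and 3171 against 3661. These pooled ratios differ less between the gates than the fitted values. Mmp7 had 2 UMIs in the members of restricted mice and 2 in those of the other diets, against 1 and 262 in the Col6a5 Clec3b cells. Defb50 had 455 and 94 in members against 3 and 456. Defa30 had 8 and 119 against 0 and 29. Secretory products summed to 45960 and 3893 CPM in the members of the 2 restricted mice, and with Svs genes left out 21 genes passed. None of the 8 listed secretory products (median -2.32) was called in this difference, nor any of 7 tested epithelial and basal markers (median 1.68). The other 9 called genes named above are in neither list, so that the lists do not cover them. Mesothelial markers had a median of -6.31 in this difference with 0 of 5 called, and without the cells that held them in the Col6a5 Clec3b gate 40 genes passed, the 13 among them.

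Of 40 groups of 4 mice, 4 held a mouse far from the other 3, where chance gives about 1 in 20. Ctla2a was 482 CPM in 1 untreated mouse of 28 months and 71.9 in the next. Among rapamycin-treated mice, Srd5a2 was 325 CPM in 1 mouse of 20 months and 269 in the next, Hamp 2.87 against 0, and Srd5a1 4.77 in 1 mouse of 28 months against 0. For Hamp and Srd5a1 the other 3 mice were at 0, so that a mouse with any UMI stands apart, and nothing is read from them.

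The young and the old individual, FVB/NJ mice of 3 and 18 months in single-mouse libraries that the rule leaves out, held 90 and 32 cells inside the gate, or 4.53% and 1.35% of their gated fibroblasts. Of these cells, 72 and 18 held at least 2 of Myh11, Cnn1, Actg2 and Des. With such cells left out of members and fibroblasts, the shares were 1.88% and 1.83%.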

How the results depend on the processing

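Without the filter on low counts, the calls were 2541 against Col6a5 Clec3b fibroblasts, 212 against Angptl7 fibroblasts, 149 for age, 140 for rapamycin, 18 for high fat, 32 for low protein, 164 for caloric restriction, 63 for the age difference between gates and 37 for the caloric restriction difference. With DESeq2 they were 51 against Angptl7 fibroblasts, 5 for age, 3 for rapamycin, 1 for low protein and 0 for the caloric restriction difference. Against Col6a5 Clec3b fibroblasts the calls were 775 without the aging pool and 2158 against all other gated fibroblasts. In the latter Tagln (-0.21), Acta2 (-0.65), Tpm2 (-0.30), Krt14 (-1.18) and Col6a1 (0.12) changed sign, as did Tagln (-0.41) and Acta2 (-0.82) without the cells with smooth muscle genes. Against Angptl7 fibroblasts the calls were 38 by library size, 80 without Svs genes, 296 with any Col6a5, Clec3b and Sult1e1, and 5 without the highest doublet scores, 0 of them higher, where Svs5 (0.96), Svs4 (0.77), Svs2 (0.96) and Svs6 (0.81) changed sign. At 5% mitochondrial UMIs age had 1 call, and at 3 UMIs of Rorb, Wif1 and Wnt2 age had 1, the age difference 4 and the caloric restriction difference 2. The caloric restriction difference had 21 by library size, 21 without Svs genes, 40 without mesothelial cells and 26 without the highest doublet scores. Leaving out 1 mouse gave 0 to 1 for age, 0 to 4 for rapamycin, 0 to 1 for high fat, 1 to 3 for low protein and 19 to 97 for caloric restriction, among them 27 (without restricted mouse 2), 30 (control diet mouse 1), 34, 36 and 37. The causes of these changes were not tested.

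The caloric restriction share of fibroblasts minus that of the other mice was -19.1 percentage points. It was 3.86 as a share of all cells, -16.5 (exact permutation p = 0.0571) with Rorb and Wnt2 alone and between -20.1 and -16.4 with 1 mouse left out, where the call was lost without control diet mouse 1 (-19.6) or 2 (-19.9), at an exact permutation p of 0.0571 each. The differences by age and rapamycin kept their direction under the alternatives run. The age difference did not pass the threshold. With all mice, the rapamycin test had only 36 splits, and each split and its mirror image give a difference of the same size. No outcome of this two-sided test could have passed, so it too shows the direction only. With 1 mouse left out the differences by age and rapamycin ran from -14.8 to -6.68 and from 3.56 to 12.4. As shares of all cells they were -4.81 and 4.03. Without 1 mouse the rapamycin test had only 18 splits of the mice, and the age test without a mouse of 3 months had 9. With so few splits no outcome could have passed, so these fits show the direction only.

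Replicate numbers did not pair the mice: after group means were subtracted, same-numbered mice correlated at -0.213 to 0.229 (aging pool) and 0.0136 to 0.0793 (diet pool). With the replicate block the calls were 1 for age, 1 for rapamycin, 0 for high fat, 3 for low protein, 80 for caloric restriction, 4 for the age difference and 34 for the caloric restriction difference. For Angptl7, the settings of 20 cells, 5% mitochondrial UMIs, 2000 UMIs and no single-mouse libraries could not be fitted, nor could 20 cells for either difference between gates. Scaling by library size moved the median log2 value of all genes from 0.06 to 0.47 against Angptl7 fibroblasts, from 0.00 to -0.35 for the age difference, from -0.02 to 0.14 for the caloric restriction difference, from 0.02 to -0.09 for age and from -0.02 to 0.09 for rapamycin. The number of cells per mouse and of 2 mice per condition limits the precision.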

Other observations

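Prostate-like cells, those with a UMI of both Tgm4 and Pbsn and at least 5 in sum, ran from 0.865% to 17.4% of the cells in the aging pool and from 1.46% to 10.7% in the diet pool. Its correlation with the share of members over the 10 mice of the aging pool was r = 0.544 (Spearman's rho 0.515, permutation p = 0.107 and 0.131), and 0.496 without the 2 mice farthest from the median. Over the 8 mice of the diet pool it was r = 0.522 (rho 0.357, exact permutation p = 0.181 and 0.389), and 0.309 without those 2. Adjusted over these 4 values the smallest p was 0.241. The single-mouse libraries stood apart from the pools, so no value is given over all 21 mice.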
